A study of Arabidopsis thaliana with 42 samples.

Results

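Small RNA sequences of 23 nt were followed through the life of the Arabidopsis thaliana leaf. The class was made of the listed sequences of 23 DNA letters that occur in the count tables of both sets, with a sequence and its reverse complement counted once. It held 3436 of the 53340 sequences of 18 to 48 nt that both tables list, beside 4803 of 21 nt, 3783 of 22 nt and 5625 of 24 nt. The study sequenced small RNA from leaves at 4, 8, 12, 16, 20, 24 and 28 days after emergence, in 2 sets that the submitters call biological replicates, which gave 14 libraries. Here old leaves are those of 24 and 28 days, mature leaves those of 12 and 16 days and young leaves those of 4 and 8 days, with 4 libraries each, and day 20 belongs to no stage. Every library is labelled as leaf, and the labels name no genotype, strain or treatment, nor what was separate between the sets, so a p-value sets a difference against the spread of these libraries alone, part of which may be technical. The stages are ages of whole leaves, so that fewer cells of a type and less RNA per cell cannot be told apart. Levels are reads per 1000000 listed reads of 18 to 28 nt (rpm), and these reads numbered 1667551 to 7386228 per library.

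Plant cells cut small RNAs to set lengths with Dicer-like enzymes. MicroRNAs and secondary small interfering RNAs (siRNAs) are shorter than the heterochromatic siRNAs, which RNA polymerase IV, the RNA-dependent RNA polymerase RDR2 and the Dicer-like enzyme DCL3 make and which Argonaute proteins use to guide DNA methylation. DCL3 cuts its double strand so that the longer of its products is 24 nt and the other 23 nt. A library of small RNA can also hold pieces of abundant RNAs such as ribosomal and transfer RNA, which come in many lengths.

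The 10 most abundant 23 nt sequences, ranked by mean level over the 14 libraries and called here by their rank, are shown because they hold most of the class. Capitals mark the run of 18 letters that most other listed sequences of any length share, on either strand.
sequence 1: CTAACAGACCGGTAGACTtgaac
sequence 2: GCGTCCTCAGCGACGGACcgggc
sequence 3: aGGAGAGCACTCATCTTGGggtg
sequence 4: aacgaCTCTCGGCAACGGATATC
sequence 5: cggGCCTGGTCACTGCGACCCcc
sequence 6: gccggCCGGGGGACGGACTGGGA
sequence 7: GGGGATGTAGCTCAGATGgtaga
sequence 8: catctAATTGGTTCATCATTCTC
sequence 9: acctATACCCGGCCGTCGGGGCa
sequence 10: CTTTGTTCTCAACTCTTCccgcc
Sequences 1, 3, 5 and 7 are listed in both orientations and the others of these 10 only as printed. In the class as a whole 818 sequences are listed in both orientations and 2618 in 1. The listed orientation is not that of the RNA in general. Of the 116 entries that the tables also give in RNA letters, 48 were found in DNA letters only in their own orientation and 37 only as the reverse complement in set 1, and 48 and 36 in set 2. The strand and the first base of a 23 nt RNA were therefore not read.

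The 23 nt class made up less of the small RNA in old leaves than in young leaves. In set 1 it held 24.1% of the listed reads of 18 to 28 nt at day 4, 20.3% at day 8, 18.8% at day 12, 17.6% at day 16, 15.3% at day 20, 12.6% at day 24 and 8.85% at day 28. In set 2 the same ages gave 17.0%, 18.3%, 17.4%, 16.7%, 14.6%, 12.3% and 8.66%. Each age was lower than the one before it, except day 8 in set 2, and the sets differed most at day 4.

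Averaged over stages, the class held 10.6 ± 2.12% in old leaves, 17.6 ± 0.887% in mature leaves and 19.9 ± 3.10% in young leaves (SD, n = 4 each). The old and young libraries did not overlap, with a ratio of 0.527 between their geometric means (two-sided exact permutation test on log2 shares, p = 0.0286, adjusted p = 0.0429 over 3 comparisons). The smallest p that 4 against 4 libraries allow is 0.0286. Old and mature leaves differed with a ratio of 0.592 (exact permutation test, adjusted p = 0.0429), while the difference between mature and young leaves, at 0.891 of the young level, was within the spread (exact permutation test, p = 0.229). These tests take no account of set. Permuted within each set, which allows no p under 0.0556 in 36 arrangements, old against young and old against mature leaves each had p = 0.0556 and adjusted p = 0.0833 (exact permutation test), so neither passes there. Without the 10 most abundant sequences the class held 3.52 ± 0.740% in old leaves and 2.59 ± 0.670% in young leaves, a log2 difference of 0.46 (exact permutation test, adjusted p = 0.343). The exact 95% binomial interval of a library's share was at most 0.0912 percentage points wide and covers counting error only. Reads of 18 to 28 nt were themselves 95.0% (set 1) and 78.2% (set 2) of all listed reads at day 4, and 35.1% and 24.3% at day 28. Over all listed reads of 18 to 48 nt the class held 3.60 ± 1.24% in old leaves and 16.9 ± 4.93% in young leaves (SD, n = 4 each).

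**Figure D1:**
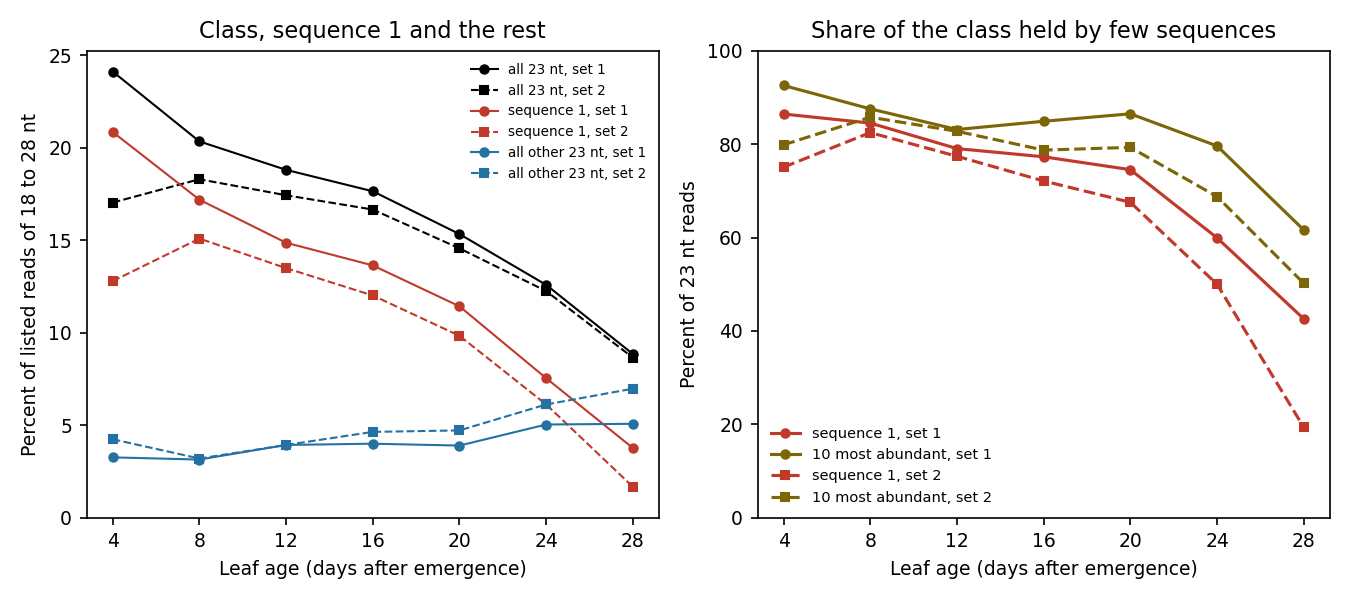
Left, percent of listed reads of 18 to 28 nt (y axis) held by all 23 nt sequences, by sequence 1 and by all other 23 nt sequences at each leaf age in days (x axis), with 1 point per library and a line per set. Right, percent of 23 nt reads held by sequence 1 and by the 10 most abundant sequences. The class ends at 8.85% and 8.66% at day 28, and sequence 1 ends below the rest of the class in both sets.

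A single sequence carried most of the class. Sequence 1 held 86.5%, 84.5%, 79.1%, 77.3%, 74.5%, 59.9% and 42.6% of the 23 nt reads of set 1 from day 4 to day 28. In set 2 it held 75.1%, 82.5%, 77.4%, 72.1%, 67.6%, 50.0% and 19.4%. At its median over the 14 libraries, sequence 1 held 74.8% of the class, the 10 most abundant sequences 81.3% and the 100 most abundant 89.9%. The most abundant 21 nt sequence held a median of 40.6% of its class, the most abundant 22 nt sequence 33.9% and the most abundant 24 nt sequence 13.4%. In old leaves the means were 43.0% at 23 nt and 45.0% at 21 nt, against 82.1% and 31.8% in young leaves, so the order of these lengths changes with age. Sequence 1 included, 7 members averaged 1000 rpm or more, 52 averaged 100 or more and 557 averaged 10 or more, and the median member averaged 2.60 rpm.

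Sequence 1 stood at 75451 and 37720 rpm (set 1) and at 61270 and 16779 rpm (set 2) in old leaves, against 208491 and 171909 rpm (set 1) and 127893 and 150893 rpm (set 2) in young leaves, each pair in order of age. Every old library was below every young library, and day 28 was the lowest age in both sets. The means were 47805 ± 25884 rpm in old leaves, 135027 ± 11676 rpm in mature leaves and 164796 ± 34229 rpm in young leaves (SD, n = 4 each). Its log2 fold change in old over young leaves was -1.95 ± 0.38 (SE; edgeR quasi-likelihood test over all 46841 sequences tested, adjusted p = 0.00296). Old over mature leaves gave -1.68 (adjusted p = 0.0155) and mature over young leaves -0.27 (adjusted p = 1), both by the same edgeR fit.

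What remained of the class without sequence 1 followed another course, whose direction turns with the scale. It held 5.04%, 5.08%, 6.13% and 6.98% of the reads of 18 to 28 nt in the old libraries, against 3.27%, 3.15%, 4.25% and 3.21% in the young libraries. Every old library was above every young library on this scale, but over all listed reads of 18 to 48 nt the remainder averaged 1.91 ± 0.346% in old leaves and 2.89 ± 0.493% in young leaves (SD, n = 4 each), which is the other direction, with overlap between the stages. With sequence 1 in it, a change of that sequence moves the share of every other one, so these values are given as a description with no test. Against 24 nt sequences, the remainder was 0.887, 0.892, 0.949 and 0.954 times as abundant in the old libraries and 0.859, 0.784, 0.717 and 0.664 times in the young libraries.

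Sequence 1 is 1 rung of a ladder of sequences with the same last letters. For each length from 18 to 48 nt the tables list 1 sequence that ends sequence 1 or ends in all of it. Any sequence with the same last 18 letters but other letters before them was left out. This makes 31 rungs. Of these, 6 are shown to make the shared end visible, with the letters they share with sequence 1 in capitals.
ladder, 21 nt: AACAGACCGGTAGACTTGAAC
ladder, 22 nt: TAACAGACCGGTAGACTTGAAC
ladder, 23 nt: CTAACAGACCGGTAGACTTGAAC
ladder, 24 nt: cCTAACAGACCGGTAGACTTGAAC
ladder, 25 nt: tcCTAACAGACCGGTAGACTTGAAC
ladder, 32 nt: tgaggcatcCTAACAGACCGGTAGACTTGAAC
Of the ladder's reads of 18 to 28 nt, 23 nt made up 43.6% on average, between 34.1% and 48.3% over the 14 libraries. The 24 nt rung was lower than those of 22 and 25 nt, with 2707 rpm in old leaves and 7155 rpm in young leaves, against 9248 and 31777 rpm at 22 nt and 9284 and 27041 rpm at 25 nt, each pair in the same order.

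The whole ladder of 18 to 28 nt took a smaller share in old leaves, not the 23 nt rung alone. It held 15.9%, 8.48%, 15.7% and 4.92% of the reads of 18 to 28 nt in the old libraries, against 43.5%, 35.6%, 31.7% and 33.7% in the young libraries, with no overlap. The stage means were 11.3 ± 5.46% in old leaves, 30.7 ± 1.90% in mature leaves and 36.1 ± 5.15% in young leaves (SD, n = 4 each). Within the ladder of 18 to 28 nt, the 23 nt share was 41.3 ± 5.90% in old leaves and 45.3 ± 3.69% in young leaves, which overlap. Rungs of 29 to 48 nt held 28.4 ± 5.78% of the ladder's reads in old leaves and 14.6 ± 11.9% in young leaves. The young sets stood apart in this measure, with 4.53% and 4.89% in set 1 and 20.5% and 28.5% in set 2.

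**Figure D2:**
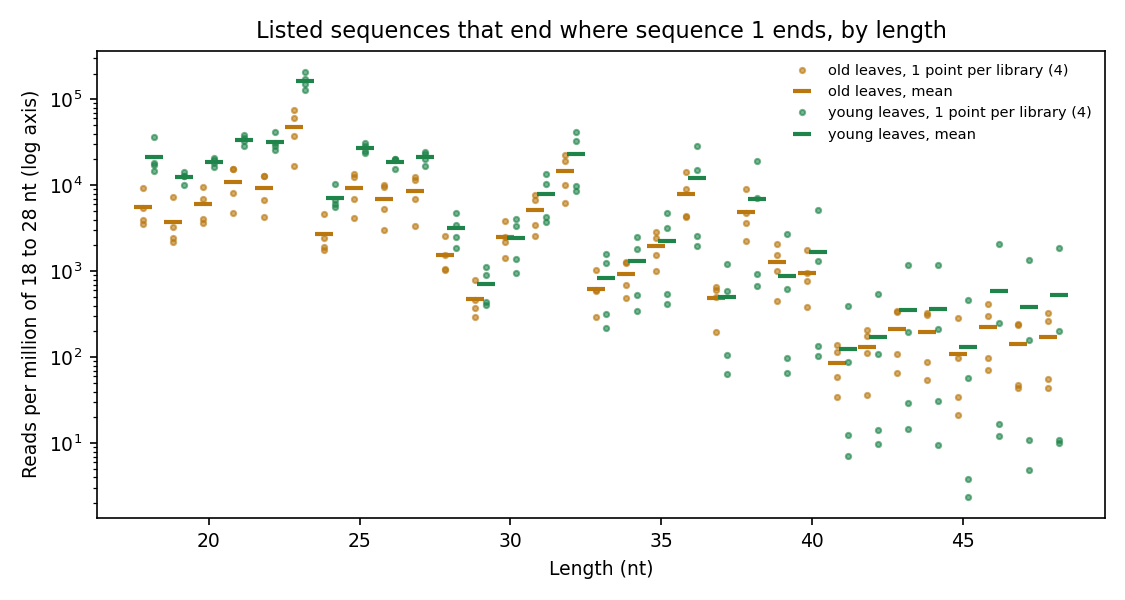
Reads per 1000000 listed reads of 18 to 28 nt (y axis, log scale) of the 31 listed sequences that end where sequence 1 ends, by length in nt (x axis); points are the 4 old and the 4 young libraries and bars their means. The 23 nt rung is the highest in both stages, at a mean of 47805 rpm in old and 164796 rpm in young leaves.

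Of the 10 most abundant sequences, 5 were higher and 2 lower in old than in young leaves, where 13.4% of all sequences tested were higher and 5.76% lower. The ranking takes in the old libraries, so a sequence can be among the 10 through its level there. Sequences 2, 5, 6 and 9 averaged only 192, 17.1, 67.0 and 93.4 rpm in young leaves. The count of rises among the 10 is therefore a description and is not comparable with the share over all sequences. Sequence 2 stood at 11656 and 6387 rpm (set 1) and 13312 and 16702 rpm (set 2) in old leaves, against 44.2 and 313 rpm (set 1) and 84.8 and 327 rpm (set 2) in young leaves. It was the lowest at day 4 in both sets, and old and young libraries did not overlap. The log2 fold change was 6.37 ± 0.51 (SE; edgeR, adjusted p = 2.88e-05). Mature leaves lay between, at 2232 ± 1488 rpm (SD, n = 4). At day 28 of set 2, sequences 2 and 1 stood at 16702 and 16779 rpm.

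Sequence 5 stood at 4374, 2171, 1233 and 1692 rpm in the old libraries, against 32.9, 12.3, 9.34 and 13.9 rpm in the young libraries (days 24 and 28, or 4 and 8, of set 1 and then of set 2). Its rise was the largest of the 10, with a log2 fold change of 7.09 ± 0.65 (SE; edgeR, adjusted p = 4.34e-05). Sequence 6 stood at 3284, 2787, 1480 and 2868 rpm in the old libraries, against 61.9, 86.0, 45.5 and 74.5 rpm in the young libraries (5.29 ± 0.45, adjusted p = 3.10e-05, edgeR). Sequence 9 stood at 1777, 1013, 839 and 1457 rpm in the old libraries, against 13.3, 148, 34.9 and 178 rpm in the young libraries (4.35 ± 0.50, adjusted p = 0.000109, edgeR). None of these 3 overlapped between old and young leaves, but how many of all sequences tested do not overlap was not counted.

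Sequence 10 changed less, with 741, 961, 736 and 987 rpm in the old libraries, against 606, 172, 88.1 and 187 rpm in the young libraries. Its groups did not overlap and its log2 fold change was 1.85 ± 0.49 (SE; edgeR, adjusted p = 0.0194), but the call was lost with TMM factors (1.45, adjusted p = 0.0984) and with DESeq2's own size factors (1.37, adjusted p = 0.0842). It was also lost without the day 8 library of set 1 (1.72, adjusted p = 0.0611), the day 24 library of set 2 (1.72, adjusted p = 0.0612) or the day 28 library of set 2 (1.71, adjusted p = 0.0677), and with library size from all listed reads of 18 to 48 nt (0.49, adjusted p = 0.415). Sequences 2, 5, 6 and 9 were also higher in mature than in young leaves, with log2 fold changes of 3.80, 5.14, 2.55 and 3.37 (edgeR, adjusted p = 0.00334, 0.00288, 0.00743 and 0.00504).

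Of the other sequences among the 10, 1 was lower in old leaves. Sequence 3 stood at 762, 487, 1307 and 432 rpm in the old libraries, against 3468, 2684, 3278 and 2120 rpm in the young libraries, with no overlap (log2 fold change -2.06 ± 0.37, SE; edgeR, adjusted p = 0.00172). Sequence 4 stood at 820, 1307, 2255 and 1037 rpm in the old libraries, against 1976, 1992, 3623 and 2235 rpm in the young libraries. Its groups overlapped and it did not pass the test (-0.86, adjusted p = 0.144, edgeR), though it did with DESeq2's own size factors (-1.22, adjusted p = 0.00541) and with library size from all listed reads (-2.15, adjusted p = 0.00316).

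Sequence 7 stayed between 969 and 1461 rpm from day 12 on. It stood at 969, 1188, 1416 and 1135 rpm in the old libraries, against 297, 663, 871 and 720 rpm in the young libraries, which did not overlap but did not pass the test (0.94, adjusted p = 0.0911, edgeR). The call was made without the day 4 library of set 2 (1.29, adjusted p = 0.0205, edgeR) and by DESeq2 on the same library sizes (0.94, adjusted p = 0.0367), while with library size from all listed reads the value was -0.37 (adjusted p = 0.453). Sequence 8 was high in 1 library. It stood at 393, 546, 420 and 366 rpm in the old libraries, against 8252, 118, 113 and 176 rpm in the young libraries, where 8252 rpm belonged to day 4 of set 1. The log2 fold change was -0.78 (adjusted p = 0.568, edgeR) with that library and 1.73 (adjusted p = 0.0135) without it, so no direction is given for sequence 8. Without the day 4 library of set 2 the value was -1.35 (adjusted p = 0.0210).

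**Figure D3:**
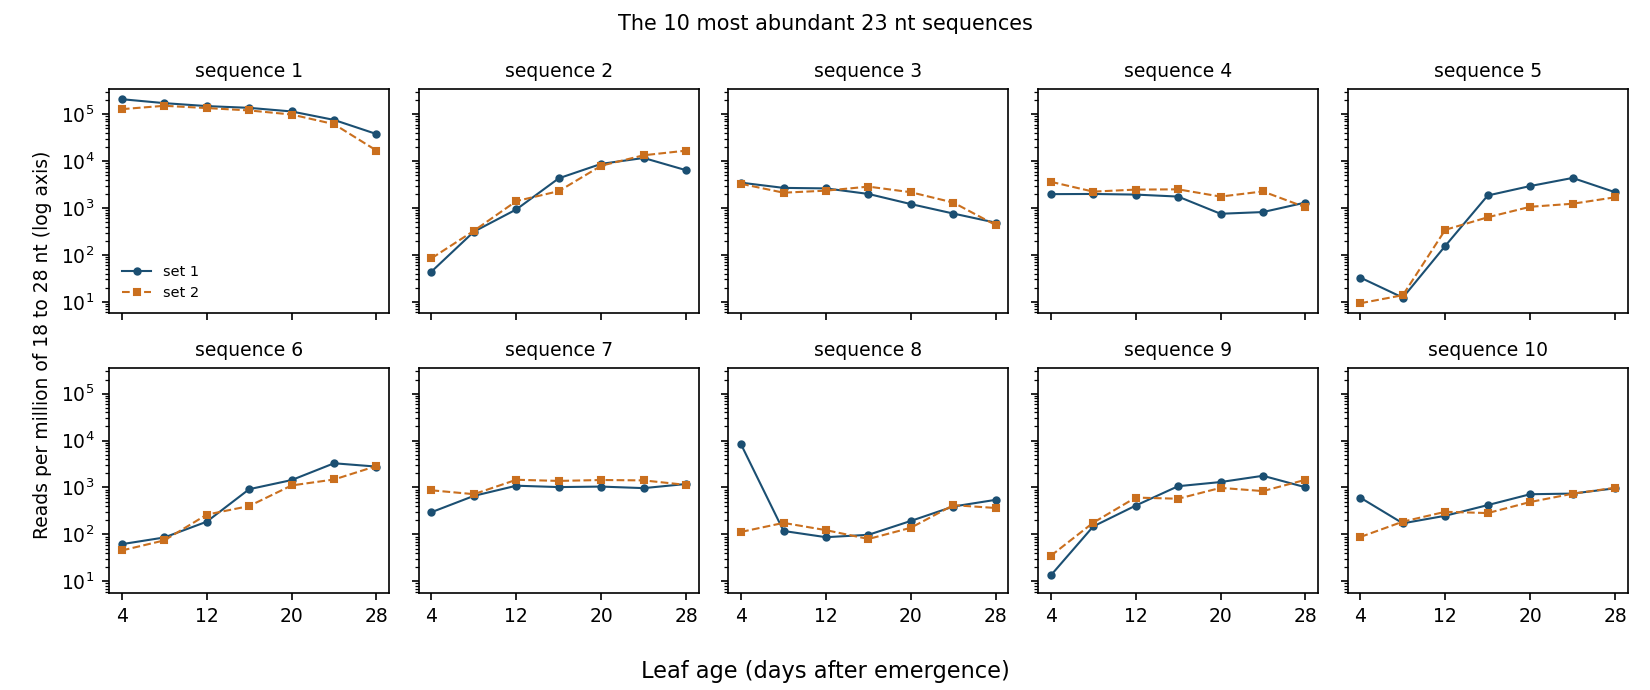
Reads per 1000000 listed reads of 18 to 28 nt (y axis, log scale, the same in all panels) of the 10 most abundant 23 nt sequences at each leaf age in days (x axis), with 1 point per library and a line per set. Sequences 2, 5, 6 and 9 climb from under 100 rpm at day 4 to over 1000 rpm at day 28, and sequence 8 has 1 point at 8252 rpm.

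Away from the 10, the largest changes were those of rarer sequences. They were picked for their fold change, so their values are a description.
sequence 42: gGCAGGGCTAGTGACTGGAgtga
sequence 1339: GGTGAAACTACCAGCATGaccta
sequence 1203: GTACTATTCTACCACTAGaccac
sequence 709: gaGCCTACCTTCGCACACCTccg
sequence 996: TCAGCGGACTGCTCGAGCtgctt
sequence 1887: cctatCGATCCTTTAGACCTTCG
Sequence 42 had the largest rise in old leaves, with 280, 313, 217 and 380 rpm in the old libraries, against 0.342, 0.674, 0.271 and 0 rpm in the young libraries, or 2325 and 8 reads over the 4 libraries. Sequence 1339 came to 79 reads in old leaves and 1 read in young leaves, a ratio of 239 once scaled by depth, with an exact 95% counting interval of 41.7 to 9558. Its capitals occur in no other listed sequence of any length. Sequence 1203 was among the largest rises in mature leaves, with 2.42 ± 1.12 rpm in mature leaves and 0.361 ± 0.452 rpm in young leaves, with overlap, and reached 9.35 ± 2.27 rpm in old leaves (SD, n = 4 each). Its call in mature leaves was lost without the day 8 library of set 1 (log2 fold change 3.93, adjusted p = 0.0537, edgeR), the day 16 library of set 1 (3.88, adjusted p = 0.0701) or the day 12 library of set 2 (3.42, adjusted p = 0.102).

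Sequences 709, 996 and 1887 had the largest rises in old over mature leaves. Sequence 709 averaged 21.3 ± 12.1 rpm in old leaves and 1.07 ± 1.14 rpm in mature leaves, sequence 996 averaged 16.8 ± 7.57 and 0.429 ± 0.345 rpm, and sequence 1887 averaged 7.12 ± 5.69 and 0.170 ± 0.196 rpm in the same order (SD, n = 4 each). In each of the 3 the old and mature libraries did not overlap, which their choice by this difference favours. At day 20 they stood at 8.23, 0.305 and 0.610 rpm in set 1 and at 7.93, 0.915 and 0.305 rpm in set 2, so that sequence 709 was above all its mature values by then.

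The largest falls were of sequences with few or no reads in old leaves.
sequence 2025: ggGGATGAAGCCTGGTCCGAgga
sequence 2144: gtGGGTGTTGAGCATTTACCtgt
sequence 2062: aaccCGTAATCGCAACGACCCAa
sequence 972: agAGCGGAGCTCTACCAACTgag
sequence 1918: CGGACTCGAACCGCTGACatccg
sequence 2364: caccgCCCGTCACACTATGGGAG
sequence 2547: ACCTACAGACGCTTTACGcccaa
sequence 2461: cAGACTGCCGGTGATAAGCcgga
Sequences 2025, 2144 and 2062 had 0 reads in all 4 old libraries, against 143, 138 and 137 reads in the 4 young libraries. A ceiling of 3 counts over the old libraries, or 0.370 rpm, was set for a count of 0. The pooled young levels were 15.8, 15.2 and 15.1 times this ceiling. These ratios leave out the spread of the young libraries, and the sequences were picked for their fall. Of the 137 reads of sequence 2062, 94 were in the day 4 library of set 1. Sequences 2364, 2547 and 2461 also had 0 reads in the old libraries, against 49, 42 and 45 reads in the mature libraries. Their pooled mature levels were 6.27, 5.38 and 5.76 times the same ceiling, again without the spread of the mature libraries. The calls of these last 3 rest on few reads. That of sequence 2364 was lost without the day 12, 16, 24 or 28 library of set 1 or the day 16, 24 or 28 library of set 2 (edgeR, adjusted p up to 0.129). That of sequence 2547 was lost without the day 12, 16 or 24 library of set 1 or any 1 of the old and mature libraries of set 2 (adjusted p up to 0.0982, edgeR). That of sequence 2461 was lost without the day 12 or 24 library of set 1 or any 1 of the same libraries of set 2 (adjusted p up to 0.0791, edgeR).

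Sequences 972 and 1918 were the 2 falls already called in mature leaves. Sequence 972 stood at 2.86, 1.91, 3.29 and 1.16 rpm in the mature libraries, against 21.4, 13.7, 13.8 and 12.9 rpm in the young libraries, and came to 3 reads in old leaves. Sequence 1918 stood at 2.08, 0.347, 1.28 and 0.332 rpm in the mature libraries, against 9.75, 5.73, 6.63 and 3.75 rpm in the young libraries, and came to 2 reads in old leaves. Neither overlapped between mature and young leaves, which their choice by this difference favours. Their mature calls (log2 fold change -2.79 and -2.97, adjusted p = 0.0294 and 0.0255, edgeR) were lost without any 1 of the young and mature libraries of set 1 or without the day 12 or 16 library of set 2, and that of sequence 972 also without the day 8 library of set 2 (edgeR, adjusted p up to 0.179 for sequence 972 and 0.205 for sequence 1918).

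Across the class, 2945 of the 3436 members had at least 10 reads in at least 2 libraries and were tested. In old against young leaves 346 of them (11.7%) were higher and 181 (6.15%) lower (edgeR, adjusted p under 0.05), beside 13.4% higher and 5.76% lower among all sequences tested. The median log2 fold change was -0.29 over the tested members and 0.00 over all sequences tested. Among 24 nt sequences 8.44% were higher and 11.9% lower, with a median of -0.49. The split depends on the scale, for all sequences too. With TMM factors 329 members were higher and 307 lower, beside 6289 and 4427 of all 46841 sequences tested, whose median moved to -0.18. With library size from all listed reads of 18 to 48 nt, 179 members were higher and 1467 lower. Of all sequences tested 4002 were then higher and 17836 lower, and their median moved to -1.28. The 181 lower calls also fell to 105, 71 and 106 without the day 8, day 24 or day 28 library of set 1, and to 114 and 66 without the day 24 or day 28 library of set 2. The 2697 lower calls among all sequences tested fell as well, to 1815, 1304 and 1829, and to 1698 and 1179.

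**Figure D4:**
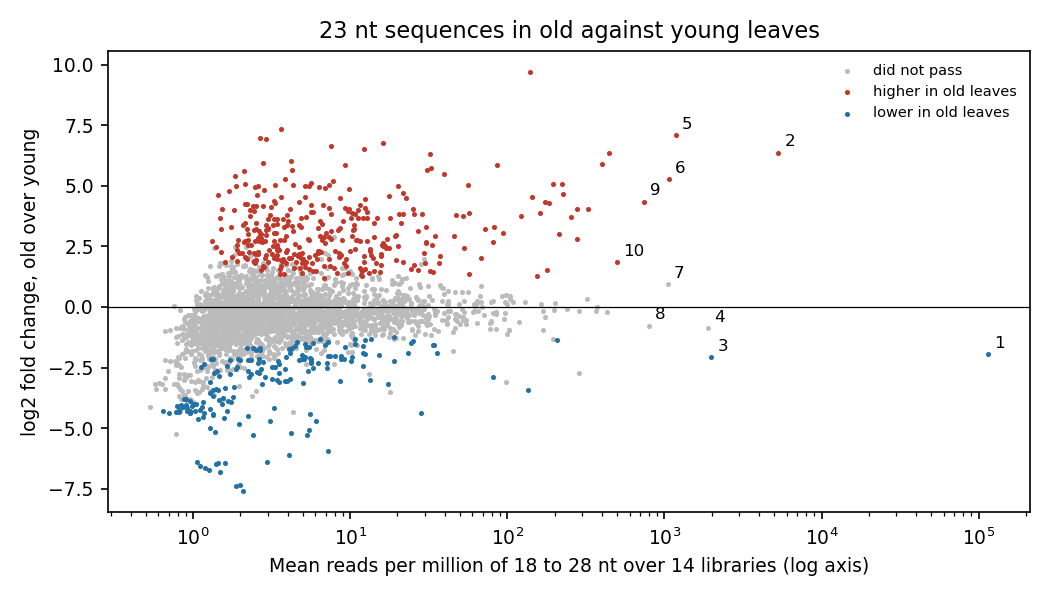
Log2 fold change in old over young leaves (y axis) against mean reads per 1000000 listed reads of 18 to 28 nt over the 14 libraries (x axis, log scale) for the 2945 tested 23 nt sequences, coloured by the edgeR call, with numbers at the 10 most abundant. Sequence 1 stands alone at the right, at a mean of 114512 rpm and a log2 fold change of -1.95.

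Between the other stages fewer members passed. In mature against young leaves 59 were higher (2%, beside 2.02% of all sequences tested) and 2 lower (0.0679%, beside 0.222%). The 59 became 31, 19, 35 and 16 without the day 4, 8, 12 or 16 library of set 1, and 14 when day 12 of set 2 was left out. The 947 higher calls among all sequences tested became 371, 274, 574 and 224, and 176. The 2 became 0 without any 1 of the day 4, 8, 12 and 16 libraries of set 1 or the day 12 and 16 libraries of set 2, 1 without day 8 of set 2 and 5 without day 4 of set 2. The 104 lower calls among all sequences tested became 4 to 43 where the 2 became 0, then 34 and 159. Among members with an unadjusted p under 0.05, 44 were lower and 202 higher in mature leaves.

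In old against mature leaves 185 were higher (6.28%, beside 8.33%) and 76 lower (2.58%, beside 2.16%). The higher count became 73, 82 and 69 without the day 12, 16 or 24 library of set 1, and 55, 31, 107 and 77 without the day 12, 16, 24 or 28 library of set 2. Among all sequences tested 3904 became 1432, 1987 and 1343, and 1127, 748, 2572 and 1476. The lower count became 12, 25, 11 and 31 without the day 12, 16, 24 or 28 library of set 1, and 20, 5, 33 and 15 without the same days of set 2. Among all sequences tested 1010 became 161, 272, 152 and 433, and 278, 107, 410 and 185. A change over any of the 7 ages was called in 230 members (7.81%, beside 9.08%), and in 111 without the day 28 library of set 2. That library's removal took the count over all sequences tested from 4254 to 2036.

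The calls can also be summed by reads. The 346 members called higher summed to 3.48% of the reads of 18 to 28 nt in old leaves and 0.227% in young leaves. The members called lower, sequence 1 left out, summed to 0.121% in old leaves and 0.494% in young leaves. The 2418 tested members with no call summed to 2.16% and 2.70% in the same order. These sums restate the calls and are a description.

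The members called higher had a median GC content of 56.5%, against 52.2% in the members called lower and 52.2% over all 3436 members, tested or not. Of the 10 most abundant, the 5 called higher ranged widely: sequences 2 and 5 hold 78.3% G and C, sequence 6 82.6%, sequence 9 69.6% and sequence 10 52.2%. Those called lower, sequences 1 and 3, hold 47.8% and 56.5%. Sequences 4 and 7 hold 52.2% and sequence 8 34.8%, with no call. Over all tested members GC content and fold change were nearly unrelated (Spearman rho 0.0903 across 2945 sequences, which are not independent replicates and share their libraries and their overlaps). Abundant members differed more. Among the 100 most abundant, the 33 called higher had a median of 69.6% and the 5 called lower 47.8%, with 62 not called. Among the 557 that averaged 10 rpm or more, the 121 called higher had 56.5% and the 27 called lower 52.2%. Whether base composition bears on how such RNAs were captured and read was not tested.

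Many members overlap each other or sequences of other lengths. The 3436 members fall into 812 groups that share a run of 18 letters or more on either strand, of which 461 hold 1 member and the largest 76. With 96 groups of at least 10 members holding 2008 of them, members are not independent of each other. Of the 3436 members 2889, or 84.1%, lie within a listed 24 nt sequence with 1 letter more at an end. The same held for 78.4% of 22 nt sequences within 23 nt ones and for 47.6% of 24 nt sequences within 25 nt ones. In 2494 tested pairs the fold change of the 23 nt member and that of its 24 nt partner correlated across pairs at Pearson's r = 0.795 (Spearman's rho = 0.772), a description over sequences from the same libraries. Of the 433 members of such pairs that were called, 274 had a partner that was also called, 273 of them in the same direction. Among all 24 nt sequences tested, 8.44% were higher and 11.9% lower. The share of called partners over all 2494 pairs was not counted, so the count of 274 is a description. At the median pair, the 23 nt member was 0.825 times as abundant as its partner. The partner was the most abundant 24 nt sequence that holds the member, which pulls this ratio down.

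The sequences that share a run of 18 letters with each of the 10 leading members show how far 23 nt was their main length. Sequence 1 and those that share a run with it came to 87 sequences of 18 to 48 nt, and 36.5% of their summed level was at 23 nt, the commonest length. It was also the commonest length around sequences 5, 7, 8 and 10, at 41.7%, 36.2%, 76.6% and 50.5%. Around sequence 2 it held 39.2%, beside 40.0% at 24 nt, and around sequence 6 it held 25.3%, beside 39.5% at 24 nt. Around sequence 3 the commonest length was 19 nt, at 32.2%, and 23 nt held 7.67%. Sequence 9 lies in a set of 151 sequences with 86.8% of its level at 29 nt and 0.469% at 23 nt, and that of sequence 4 is most often 30 nt, with 9.55% at 23 nt.

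Groups of members that share a run can be summed under their most abundant member. The group of sequence 2 held 35 members and averaged 12697 ± 4603 rpm in old leaves and 424 ± 160 rpm in young leaves (SD, n = 4 each). The group of sequence 6 held 27 members, with 3184 ± 806 rpm in old leaves and 224 ± 37.6 rpm in young leaves. The group of sequence 9 held 31 members, with 1988 ± 512 rpm in old leaves and 301 ± 133 rpm in young leaves. Sequences 5, 7 and 8 shared no run of 18 letters with another member, and the group of sequence 1 held 3 members that averaged 114540 rpm together over the 14 libraries, of which sequence 1 made up 114512 rpm.

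The sequences that the tables also give in RNA letters were rare in the class. Only 10 members hold such an entry whole, and they summed to 0.0897% of the mean 23 nt level. The most abundant is given with the entry in capitals.
sequence 48: TCGCTTGGTGCAGGTCGGGAAcc
It averaged 104 rpm, between 75.3 and 136 rpm over the 14 libraries. The next 4 averaged 13.5, 10.8, 3.40 and 2.88 rpm.

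Total RNA of the same ages was read for the genes that make and use siRNAs, with levels in FPKM (fragments scaled by transcript length and library size, as the authors deposited them) over 4 old and 4 young libraries of the same days. Most genes were higher in old leaves on this scale: 63.6% of the 18239 tested genes were higher and 20% lower (limma on log2(FPKM + 1), adjusted p under 0.05), and the median log2 difference was 0.72. Of 22 genes of the heterochromatic siRNA pathway 17 were tested, of which 5 were higher, 5 lower and 7 neither. Their median was 0.02. With quantile normalization, which moved the median of all genes to 0.07, 3 were higher and 14 lower. Of all 18239 genes 7348 were then higher and 6455 lower. The day 4 library of set 1 stood apart, with 13359 genes at 1 FPKM or more against 14889 to 16128 in the others. Without it 4 pathway genes were higher and 4 lower, beside 10983 and 4249 of all genes tested. Leaving out the day 4 library of set 2 instead gave 8 higher, beside 12440 of all genes tested. Differences below are of mean log2(FPKM + 1) ± SE by the same limma fit, on which genes of low FPKM change by less than their fold. That fit held all 28 total RNA libraries, so the SE and adjusted p draw on the spread at every age.

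At the start of the pathway, NRPD1, the largest subunit of RNA polymerase IV, stood at 1.90, 3.22, 2.66 and 3.55 FPKM in old leaves, against 0.655, 1.42, 0.928 and 1.91 FPKM in young leaves (0.79 ± 0.13, adjusted p = 1.31e-05). The day 24 library of set 1 lay just below the highest young library, so the groups overlapped. CLSY3, a chromatin remodeller that guides RNA polymerase IV, stood at 0.369, 2.29, 0.278 and 1.72 FPKM in old leaves, highest at day 28, against 0.0288 to 0.0768 FPKM in young leaves (0.92 ± 0.11, adjusted p = 3.05e-07). RDR2, which makes the double strand, stood at 1.19, 1.51, 1.19 and 1.12 FPKM in old leaves, against 1.59, 1.73, 1.51 and 1.53 FPKM in young leaves, and did not pass (-0.20 ± 0.11, adjusted p = 0.0928). DCL3, which cuts it, was lower, with 0.580, 0.351, 0.669 and 0.559 FPKM in old leaves, against 0.843, 0.950, 1.01 and 0.649 FPKM in young leaves. Its difference of -0.28 ± 0.12 (adjusted p = 0.0381, limma) lost its call without the day 4, 8, 24 or 28 library of set 1 or the day 4 or 24 library of set 2 (adjusted p = 0.0541, 0.187, 0.0737, 0.108, 0.0732 and 0.0749). AGO4, the main Argonaute of heterochromatic siRNAs, was lower, with 6.36, 3.38, 5.28 and 2.90 FPKM in old leaves, against 7.24, 11.4, 14.6 and 9.88 FPKM in young leaves and no overlap (-1.11 ± 0.16, adjusted p = 3.47e-06).

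Further along the pathway, 3 more genes were lower in old leaves. NRPE1, the largest subunit of RNA polymerase V, averaged 0.832 ± 0.165 FPKM in old leaves and 1.57 ± 0.132 FPKM in young leaves (SD, n = 4 each; adjusted p = 0.000105, limma). DMS3, which works with the remodeller DRD1, averaged 0.684 ± 0.183 and 2.05 ± 0.238 FPKM (adjusted p = 6.55e-07), and IDN2, a protein that binds double-stranded RNA, 1.44 ± 0.449 and 2.29 ± 0.499 FPKM (adjusted p = 0.000632), in the same order. The DNA methyltransferase DRM2 was higher, at 5.39 ± 0.248 FPKM in old leaves and 2.37 ± 1.07 FPKM in young leaves (adjusted p = 1.04e-06). SUVH9 and SUVH2, which read methylated DNA for RNA polymerase V, were higher by 0.68 ± 0.13 and 0.34 ± 0.12 (adjusted p = 0.000107 and 0.0184), but with quantile normalization they were lower by -0.23 and -0.24 (adjusted p = 0.0169 and 0.0319). SUVH2 also lost its call without the day 4, 24 or 28 library of set 1 or the day 8 library of set 2 (adjusted p = 0.119, 0.121, 0.0546 and 0.0798, limma), and in the fit without the set term (adjusted p = 0.0631, limma). The directions of NRPD1, CLSY3, DRM2, NRPE1, DCL3, AGO4, DMS3 and IDN2 were the same with quantile normalization.

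Of 12 enzymes of the other small RNA pathways, all tested, 9 were higher, 1 was lower and 2 were neither, where 63.6% of all genes were higher and 20% lower. With quantile normalization 6 were higher and 3 lower, beside 7348 and 6455 of all genes tested. AGO10 (-1.05, adjusted p = 9.25e-08, limma) and SDN1 (-0.66, adjusted p = 0.000745, limma) joined RDR6 among the lower. In the first fit the median log2 difference of the 12 was 0.98, beside 0.72 over all genes. RDR1, an RNA-dependent RNA polymerase, averaged 14.4 ± 2.26 FPKM in old leaves and 2.33 ± 1.06 FPKM in young leaves (SD, n = 4 each; adjusted p = 8.16e-10, limma). AGO2 averaged 10.2 ± 1.50 and 1.91 ± 0.614 FPKM (adjusted p = 1.71e-11), and AGO7 6.84 ± 0.680 and 1.47 ± 0.564 FPKM (adjusted p = 1.67e-08), in the same order. Both are Argonautes. URT1 and HESO1, which add nucleotides to RNA ends, differed by 1.53 ± 0.18 and 1.11 ± 0.18 (adjusted p = 2.74e-07 and 1.66e-05). The Dicer-like genes DCL2, DCL4 and DCL1 differed by 1.20 ± 0.13, 0.85 ± 0.12 and 0.62 ± 0.10, and AGO1 by 0.71 ± 0.13. With quantile normalization DCL1 and AGO1 turned to -0.14 and -0.17, which did not pass, and DCL4 kept its sign at 0.19 without passing. RDR6, the RNA-dependent RNA polymerase of secondary siRNAs, was lower, with a difference of -0.59 ± 0.11 (adjusted p = 7.19e-05). How the level of these genes bears on the 23 nt sequences was not tested.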

How the data were processed

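Small RNA was read in 14 leaf libraries and total RNA in 28. Per the labels' protocols, RNA was isolated with a column kit, and libraries were made by the standard Illumina protocol. The authors deposited raw read counts per listed small RNA sequence, with a table for each set and no stated aligner or filter for them. Every listed row has at least 5 counts in its second-highest library. The authors deposited FPKM per gene for total RNA. Per the submitters' processing notes, TopHat 1.4.0, Cufflinks and TAIR10 were used, with no role given.

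A sequence and its reverse complement were counted once, and repeated rows once. Sequences in both tables were kept. Each library was scaled by its listed reads of 18 to 28 nt (1667551 to 7386228), of which 144336 to 1409249 were 23 nt. Depth was lowest in old leaves, so rare sequences are least precise there. Intervals cover counting error only, as reads had no stated molecular identifiers.

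Counts were fitted with edgeR 4.0.16 (quasi-likelihood, R 4.3.3), with day and set as terms, on 46841 sequences that reached 10 counts in 2 or more libraries, and Benjamini-Hochberg adjustment at 0.05. Set was a term because each set has its own deposited table. FPKM were tested as log2(FPKM + 1) with limma 3.58.1 on genes that reached 1 FPKM in 2 or more libraries. All 28 total RNA libraries were fitted, with day and set as terms, and old against young leaves was a contrast of that fit. Shares were tested with exact permutation tests in scipy 1.17.1. DESeq2 1.42.0 was an alternative, beside other scalings, filters and each library left out. The fits were tested on simulated data. Named sequences are the 10 most abundant, for each comparison the 3 strongest rises and falls that passed with 1 sign in both sets, and the 5 most abundant that hold a whole RNA-letter entry of the tables, in place of a microRNA table, which was not used here. The members, gene lists and tests were chosen with earlier results of these data known. Genome positions and gene names of the small RNA sequences were not analysed here.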

Additional observations from a re-analysis of the deposited data

Results flagged for a closer look

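In 4 of 42 groups of 4 libraries, 1 library stood far from the other 3, with most of the group's whole range lying between it and the nearest of them. Chance gives about 1 in 20 such groups. The 23 nt sequences other than sequence 1 held 4.64% of the reads of 18 to 28 nt in the day 16 library of set 2, against 3.94% to 4.01% in the other mature libraries. They held 4.25% in the day 4 library of set 2, against 3.15% to 3.27% in the other young libraries. Sequence 4 stood at 3623 rpm in the day 4 library of set 2, against 1976 to 2235 rpm in the other young libraries. Sequence 8 stood at 8252 rpm in the day 4 library of set 1, against 113 to 176 rpm in the other young libraries.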

How the results depend on the processing

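The fall of the 23 nt share in old against young leaves (log2 -0.92) and against mature leaves (-0.76) kept its direction and its call in 18 alternatives each, between -2.26 and -0.68 and between -1.89 and -0.59. Among these are fits without a library of the stage that the comparison does not use. Those could not change the difference and lend it no support. The settings with only the 10 most abundant members, or only members within a 24 nt sequence, keep sequence 1. As that sequence holds most of the class, they could hardly change the difference either. Leaving out 1 library gave -1.01 to -0.83 for old against young leaves, -0.85 to -0.67 for old against mature leaves and -0.24 to -0.07 for mature against young leaves. Without the 10 most abundant members the 3 shares reversed, to 0.46 (adjusted p = 0.343, exact permutation test), 0.17 (0.4) and 0.29 (0.343). With the replicate block, stages were permuted within each set, and -0.92 and -0.76 each had p = 0.0556, the smallest that 36 arrangements allow, and adjusted p = 0.0833 (exact permutation test). The labels do not say what same-numbered libraries share beyond a number. Their deviations correlated at a median of 0.156, between -0.284 and 0.554, over 21 pairs of ages. The fit with no replicate block called 106 members lower in old against young leaves, 1 in mature against young leaves and 34 in old against mature leaves. Among all sequences tested it called 1868, 49 and 425 lower. TMM factors called 307 lower in old against young and 131 in old against mature leaves, beside 4427 and 1739 of all sequences tested. Library size from all listed reads of 18 to 48 nt, chosen after seeing the data, called 179 higher and 1467 lower in old against young leaves. It called 60 higher and 1172 lower in old against mature leaves. The counts over all sequences tested were 4002 and 17836, and 2247 and 13808, in the same order. DESeq2 with its own factors called 363, 13 and 131 lower in old against young, mature against young and old against mature leaves, and 378 over all days. For all sequences tested these counts were 5004, 329 and 1703, and 7335. DESeq2 with the same library sizes called 89 higher and 9 lower in mature against young leaves and 378 over all days. Here the counts over all sequences tested were 1608 and 240, and 7037. Leaving out 1 library gave 258 to 351 higher and 66 to 166 lower in old against young leaves, 14 to 63 and 0 to 5 in mature against young leaves, 31 to 209 and 5 to 96 in old against mature leaves, 111 to 233 over all days, and 4 to 8 pathway genes higher and 4 to 5 lower. Of single sequences, sequence 7 reversed to -0.37 with all listed reads and sequence 8 to 1.73 without day 4 of set 1 (lowest without 1 library -1.35). Quantile normalization gave 3 pathway genes higher and 14 lower, beside 7348 and 6455 of all genes tested. It reversed NRPD2 (-0.62), SHH1 (-0.40), DRD1 (-0.48), RDM1 (-0.56), SUVH2 (-0.24), SUVH9 (-0.23), DCL1 (-0.14) and AGO1 (-0.17). Without total RNA of day 4 of set 1, SHH1 (-0.10), CLSY1 (0.053) and DRD1 (-0.22) reversed. Their other ends without 1 library were 0.42, -0.11 and 0.25. DRD1 also did without day 24 (-0.03) or day 28 (-0.00093) of set 1 or day 8 of set 2 (-0.03), and AGO10 without day 4 of set 2 (0.067, lowest -0.53). The cause of these changes was not tested. Depth limits the rare members most, whose median level was 2.60 rpm.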
